A study of Mus musculus with 5 samples.

Results

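The general transcription initiation factors of RNA polymerase II and the TATA-binding protein family were followed guide by guide in a pooled CRISPR loss-of-function screen in mouse embryonic stem (ES) cells. The genes were chosen by name: every gene whose symbol begins with Gtf2, together with Tbp and its relatives. This gave 16 of the 1682 genes in the library and 160 of its 17820 guides, with 10 guides per gene. They are the TFIIA genes Gtf2a1, Gtf2a1l and Gtf2a2, the TFIIB gene Gtf2b, the TFIIE genes Gtf2e1 and Gtf2e2, the TFIIF genes Gtf2f1 and Gtf2f2, the TFIIH genes Gtf2h1, Gtf2h2, Gtf2h3 and Gtf2h4, the TFII-I family genes Gtf2i and Gtf2ird1, and Tbp and Tbpl1. No guides are listed in the library under the names Tbpl2, Gtf2h5 and Gtf2ird2.

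The share of reads that a guide takes in a library reports how common it is. Transduced cells were sequenced once each at days 5, 8 and 12, and the plasmid pool was sequenced as 2 libraries. The genotype of the cells is labelled Ainv15(iNgn2 Tubb3::GFP), and Zeocin selection is common to all 3 cell libraries. The plasmid libraries carry the same cell labels, although their titles call them plasmid preparations. With 1 library per time point no fold change below has a replicate culture behind it, and whether 1 culture was sampled serially is not given in the sources used here.

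RNA polymerase II cannot find a promoter or open its DNA alone. TBP, within TFIID, bends the promoter DNA, TFIIA steadies it, TFIIB joins it to the polymerase that TFIIF escorts, and TFIIE brings in TFIIH, whose translocase opens the start site and which also works in nucleotide excision repair. TFII-I and its relative carry the same prefix, but they are signal-responsive DNA-binding proteins outside this core machinery.

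Guides with at least 30 reads in both plasmid libraries were kept, which left 135 of the 160 guides, 6 to 10 per gene. Guides are numbered 1 to 10 within a gene in the order of the library. All sequences are read from the deposited tables and run 5′ to 3′. In the first 2 sets the 10 bases at the 3′ end, the seed next to the protospacer-adjacent motif in the genome, are in capitals. The kept guides of Gtf2e2 (chromosome 8, 33731914 to 33777173, mm10) are shown first, because this gene had both the lowest median and the widest spread between guides.
Gtf2e2 guide 1: tcggactcaaGCAGAAACAG
Gtf2e2 guide 2: acgagctcttTCCACTCCTG
Gtf2e2 guide 3: gagacacagcACTTAGACAT
Gtf2e2 guide 4: agatacacatCCTCTAACGT
Gtf2e2 guide 5: aagataagaaGGCCCTGCTT
Gtf2e2 guide 6: caatcctaaaATTGAAGTAG
Gtf2e2 guide 8: gattgtctaaAAGCCTAAGC
Gtf2e2 guide 9: agaatctcttCCAACGTTAG

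The next set shows how far apart guides to 1 gene can lie. It holds the guide with the lowest and then the guide with the highest day 12 change of the other genes whose median was at or below -1, and of Gtf2i, whose median was nearest 0.
Tbp guide 6: ggagtaagtcCTGTGCCGTA
Tbp guide 10: gaggccaagcCCTGAGCATA
Tbpl1 guide 2: agactttatcCGATAGCACA
Tbpl1 guide 8: ttcatcctgcCGTGTGCTAT
Gtf2a1 guide 10: taaatggaaaTTTCATCTCA
Gtf2a1 guide 9: cctgctggatAACAGGAGCT
Gtf2a2 guide 6: ggtgacagaaCTTATTAAAG
Gtf2a2 guide 3: gtgaaaattgTAGCCTGTGA
Gtf2b guide 2: gatatgatctGTCCCGAATG
Gtf2b guide 10: tcttcaactaAAATTGCATC
Gtf2e1 guide 5: agtatacaagTCCTCATACG
Gtf2e1 guide 2: cagatgatgaCTCTCCACCT
Gtf2f2 guide 5: gcatcagtacTATAATCTCA
Gtf2f2 guide 9: tgtaaggctcTCACAACAGC
Gtf2h1 guide 3: ggatggagcaCTGTACCTCA
Gtf2h1 guide 2: tgatcacttgGCTCACAACA
Gtf2h2 guide 4: gaatacagccAGGACAACAA
Gtf2h2 guide 10: gactctctccATTGTTGTCC
Gtf2h3 guide 7: caaatgcatgGATGCAGTGA
Gtf2h3 guide 2: gctgttgacaGTTGCAAACG
Gtf2h4 guide 1: ctatcgattcCCCAACATGG
Gtf2h4 guide 8: taacagaccaGATTCGGCTG
Gtf2ird1 guide 4: aagagaaagaGGGTCTCTGA
Gtf2ird1 guide 10: gtgtacatggTGGACTATTC
Gtf2i guide 2: gctgatctccAGGTAACTGG
Gtf2i guide 8: gacttccaacTGGCTTGCCT

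Read totals were 3541896 and 1350234 in plasmid libraries 1 and 2, and 1063071, 1082489 and 1008492 in the cells of days 5, 8 and 12. The 160 guides took 0.919% and 0.892% of the reads of the plasmid libraries, then 0.604% at day 5, 0.484% at day 8 and 0.414% at day 12 (95% exact binomial interval 0.402 to 0.427 at day 12). Intervals cover counting error only, because reads are not separate cells. The median kept guide of these genes had 177 and 67 reads in the plasmid libraries and 31, 22 and 17 reads at days 5, 8 and 12. The share was lower at each later time point than in either plasmid library, by more than the counting error and by more than the plasmid libraries differed from each other.

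Counts were scaled to CPM, reads per sequenced total, with TMM factors of edgeR. A guide's change is the log2 ratio of its CPM plus 1 in a cell library to the mean plasmid CPM plus 1, and a gene's value is the median over its kept guides, with the SD over guides. A gene is called lower at a median of -1 (2-fold) or below. TMM sets the bulk of guides near 0, here called the TMM zero. The 893 non-targeting guides lay above that, with medians of 0.41, 0.54 and 0.58 at days 5, 8 and 12. Shares of a day 12 change present at day 5 are counted from the TMM zero and depend on it. A trend of each gene over days, with plasmid at day 0, was tested on its summed reads with the quasi-likelihood test of edgeR and Benjamini-Hochberg adjustment over all 1682 genes. "Fell" and "rose" are used of genes and guides past 0.05 in that test, which rests on 3 residual degrees of freedom and not on separate cultures. The sample titles count days from transduction, while the protocol gives the first time point from the start of selection, which came later, so the distance between the plasmid pool and day 5 on this axis, and with it each slope per day, depends on which count holds.

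The comparison of day 12 with the plasmid pool shows for which of these factors guides had become rarer by the end of the screen. Guides to 13 of the 16 genes were called lower, where 15.8% of all 1682 genes were. The exceptions were Gtf2a1l, Gtf2i and Gtf2f1, the last at -0.96, just short of the limit. The median over the 16 genes was -1.81, against 0.0090 over all genes. Of the 135 guides 122 were below 0 and 86 were at or below -1, where 52.8% and 21.5% of all kept guides to genes were. At day 12 4 of the 135 had 0 reads, as did 0.644% of guides to genes. In 10 of the 16 genes every kept guide lay below 0, as it did in 11.2% of all genes. None of the 16 was called higher at day 5, 8 or 12, where 0.0595%, 0.178% and 1.19% of all genes were. Leaving out plasmid library 1 ended the call of Gtf2e1 and leaving out plasmid library 2 that of Gtf2ird1, while Gtf2f1 was called without either one, so these 3 genes lie at the limit.

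The trend over days fell for 15 of the 16 genes and rose for 1, Gtf2a1l. This test called 25.2% of all genes lower and 34.7% higher, or 424 and 584 genes, so a call by itself is common and the slopes say more. Scaled on the non-targeting guides instead, it called 1215 genes lower and 18 higher, and the slope of Gtf2a1l turned to -0.030 without passing (edgeR adjusted p = 0.0619). At the level of guides 98 of the 135 fell and 5 rose, against 22.9% and 17.8% of all 15336 kept guides.

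Tbp (chromosome 17, 15499888 to 15517427) encodes the TATA-binding protein, the core of TFIID that also serves the initiation complexes of polymerases I and III. Its 8 kept guides summed to 1630 and 578 reads in the plasmid libraries and to 244, 160 and 167 reads at days 5, 8 and 12. Their median stood at -0.93, -1.98 and -1.24 at these days (SD 0.75 at day 12), with all 8 guides below 0 at day 12. The day 8 median was thus the lowest of the 3. Tbp guide 6 had 123 and 40 plasmid reads and then 7, 3 and 4 reads. Tbp guide 10 had 328 and 137 plasmid reads and then 103, 69 and 58, and at -0.63 it was the least changed. The slope was -0.13 log2 units per day (SE 0.023; edgeR adjusted p = 0.00157).

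Tbpl1 (chromosome 10, 22703877 to 22732666) encodes a TBP-like protein that does not bind the TATA box and is needed for sperm formation in mice. Its 9 kept guides summed to 2035 and 876 plasmid reads and to 653, 462 and 303 reads at days 5, 8 and 12. Their median stood at 0.0023, -0.61 and -1.24 (SD 0.70 at day 12), with 8 of 9 guides below 0 at day 12. Many of these guides overlap, and the 9 fall on only 4 separate sites. At day 5 75.0% of the day 12 change of Tbp, counted from the TMM zero, was present, while Tbpl1 was near 0. Non-targeting guides had a median of 0.41 at day 5, so Tbpl1 lay below them. The Tbp share is set against its day 12 median, which was less low than its day 8 median of -1.98. The like medians of Tbp and Tbpl1 at day 12 depend on the setting, since with no guide filter they were -1.68 for Tbp and -1.04 for Tbpl1, and with the mean over guides -1.48 and -0.95; the difference between the genes was not tested. The slope of Tbpl1 was -0.069 per day (SE 0.015; edgeR adjusted p = 0.00378). After a correction for the GC content of guides the day 12 medians were -0.96 for Tbp and -0.90 for Tbpl1, both short of the 2-fold limit.

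TFIIA is built from the products of Gtf2a1 and Gtf2a2, and Gtf2a1l encodes a germ cell counterpart of the Gtf2a1 product. Guides to Gtf2a1 (chromosome 12, 91555262 to 91590487) summed to 1182 and 496 plasmid reads and to 248, 128 and 95 reads at days 5, 8 and 12, over 6 kept guides. Their median was -0.89, -1.49 and -1.92 (SD 0.75 at day 12), and all 6 lay at or below -1 at day 12. Guides to Gtf2a2 (chromosome 9, 70012548 to 70022866) summed to 2331 and 745 plasmid reads and to 342, 198 and 186 reads, and their median was -1.27, -2.15 and -1.99 (SD 1.16). Both genes fell over days (edgeR adjusted p = 0.000384 for Gtf2a1 and 0.00035 for Gtf2a2), and their day 12 medians differed by less than the SD over guides. Day 12 against day 5 gave -1.11 for Gtf2a1 and -0.55 for Gtf2a2. Gtf2a2 guides 3 and 8 stood out from the other 8, with changes of 0.26 and -0.017, while the other 8 lay between -3.27 and -1.42.

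Gtf2a1l (chromosome 17, 88665493 to 88715157) kept its guides. They summed to 2939 and 1053 plasmid reads and to 872, 971 and 977 reads at days 5, 8 and 12. The median was 0.10, 0.23 and 0.48 (SD 1.01 at day 12). At day 12 it was close to the non-targeting median of 0.58, with 6 of 10 guides above 0. At days 5 and 8 it lay below the non-targeting medians of 0.41 and 0.54. The slope was 0.029 per day (SE 0.0086; edgeR adjusted p = 0.0168), and it turned to -0.030 when libraries were scaled on the non-targeting guides. Leaving out plasmid library 2 or the day 12 library ended that call, with slopes of 0.027 and 0.019 (adjusted p between 0.00282 and 0.669 over 11 alternatives, edgeR in all but 1 with DESeq2). Within the gene the trend of 4 guides rose and that of 3 fell, so its guides did not move together.

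Gtf2b (chromosome 3, 142765247 to 142783606) encodes TFIIB, which bridges TBP and the polymerase and helps set the start site. Its 8 kept guides summed to 1380 and 480 plasmid reads and to 149, 113 and 126 reads at days 5, 8 and 12. Their median stood at -1.84, -2.34 and -2.50 (SD 1.49 at day 12). Counted from the TMM zero, 73.5% of the final change was present at day 5. The day 5 median was the deepest loss at that day among the 16 genes after Gtf2f2. Gtf2b guide 2 had 104 and 30 plasmid reads, 5 at day 5 and 0 at days 8 and 12, which makes it at least 8.02-fold lower at day 12, with 3 reads set as the floor for the day 12 library. With that guide at its floor the gene's day 12 median is -2.44. Guides 9 and 10 were much less changed, at -0.52 and -0.26. The slope over all guides was -0.15 per day (SE 0.031; edgeR adjusted p = 0.00329). With at least 100 reads in both plasmid libraries guide 9 alone remained, so the value was -0.57.

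TFIIF travels with the polymerase and is made of the products of Gtf2f1, the large subunit, and Gtf2f2, the small one. Guides to Gtf2f2 (chromosome 14, 75896928 to 76010865) summed to 2336 and 843 plasmid reads and to 262, 176 and 112 reads at days 5, 8 and 12. Their median was -2.05, -2.74 and -3.01 (SD 1.55), the lowest of the 16 genes at day 5 and the second lowest at day 12, and all 9 kept guides lay below 0. The slope was -0.22 per day (SE 0.017; edgeR adjusted p = 5.04e-05). Guides to Gtf2f1 (chromosome 17, 57003401 to 57011394) summed to 2200 and 900 plasmid reads and to 482, 394 and 320 reads. Their median was -0.35, -0.87 and -0.96 (SD 1.16), with 8 of 9 guides below 0 and 4 at or below -1. Gtf2f1 fell at -0.082 per day (SE 0.0099; edgeR adjusted p = 0.000219). Of these subunits of 1 complex Gtf2f2 had the lower median, while the ranges of their guides overlapped, from -5.39 to -0.84 for Gtf2f2 and from -2.80 to 0.98 for Gtf2f1. The difference between the genes was not tested.

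TFIIE likewise has a large subunit, from Gtf2e1, and a small one, from Gtf2e2. Guides to Gtf2e2 summed to 1805 and 606 plasmid reads and to 171, 117 and 56 reads at days 5, 8 and 12. Their median stood at -1.08, -2.31 and -3.72 (SD 1.81 at day 12), and the gene ranked 7 from the lowest of all 1682 genes at day 12 and 94 at day 5. At day 5 only 29.1% of its day 12 change was present, against 73.5% for Gtf2b and 68.1% for Gtf2f2. These shares are counted from the TMM zero. Some guides had few reads already at day 5, with 3 for Gtf2b guide 3 and for Gtf2f2 guide 8. In Gtf2e2 the fewest was 8, for guide 9. Later loss of such guides is poorly measured, and the differences in share were not tested. The slope was -0.26 per day (SE 0.020; edgeR adjusted p = 4.95e-05), the steepest of the 16.

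By their day 12 values the Gtf2e2 guides shown above fall into a deeply lost set and a less changed one. Guide 4 had 436 and 158 plasmid reads and then 11, 2 and 2 reads, which left 1.76% of its plasmid abundance (95% counting interval 0.213 to 6.39%). Guide 5 had 502 and 166 plasmid reads and then 38, 17 and 4, a change of -4.66. Guide 6 had 133 and 34 plasmid reads and then 14, 2 and 0, at least 9.76-fold lower at day 12. Guides 3 and 9 also ended at 2 reads each, after 23 and 12, and 8 and 5, reads at days 5 and 8. Guides 1, 2 and 8 ended at 21, 10 and 15 reads, with changes of -1.02, -1.77 and -0.82. No kept guide lay between -3.64 and -1.77, but this gap rests on few reads. Guides 3 and 9 kept 4.91% (95% counting interval 0.591 to 18.0%) and 5.60% (0.673 to 20.5%) of their plasmid abundance. Guide 2 kept 27.6%, so these intervals reach into the gap, and whether there are separate classes of guide was not tested. With guide 6 set at the 3-read floor the gene's median is -3.29.

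Guides to Gtf2e1 (chromosome 16, 37509796 to 37539789) summed to 1932 and 700 plasmid reads and to 389, 332 and 267 reads at days 5, 8 and 12. The median was -0.62, -0.70 and -1.04 (SD 1.23), with 8 of 10 guides below 0 and a range from -2.76 to 0.90. The trend fell at -0.081 per day (SE 0.012; edgeR adjusted p = 0.000573). As in TFIIF, the gene of the small subunit had the lower median, and again the guide ranges overlapped. Its guides also had fewer G and C bases, with medians of 8.5 against 10 in TFIIE and 8 against 12 in TFIIF. After the GC correction given below the day 12 medians were -3.32 for Gtf2e2 and -0.88 for Gtf2e1. In TFIIF they were -2.42 for Gtf2f2 and -0.87 for Gtf2f1. These differences between genes were not tested.

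TFIIH joins last. Gtf2h1, Gtf2h2, Gtf2h3 and Gtf2h4 encode subunits of its core, which hold and stimulate the helicases encoded by Ercc3 and Ercc2. All 4 genes were called lower at day 12, with medians of -2.04 for Gtf2h1 (SD 1.43), -2.00 for Gtf2h2 (SD 1.35), -2.54 for Gtf2h3 (SD 1.48) and -1.69 for Gtf2h4 (SD 1.46). Every kept guide to these 4 genes lay below 0. Their day 5 medians were -1.21, -1.19, -1.0 and -0.75 in the same order. Adjusted p-values of edgeR for the slopes lay between 5.04e-05 and 0.000394.

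Guides to Gtf2h1 (chromosome 7, 46796094 to 46823800) summed to 1885 and 677 plasmid reads and to 262, 184 and 132 reads. Guides to Gtf2h2 (chromosome 13, 100460218 to 100492609) summed to 853 and 293 plasmid reads and to 119, 77 and 55 reads, the lowest starting depth of the 16 genes. Guides to Gtf2h3 (chromosome 5, 124579148 to 124597680) summed to 1576 and 621 plasmid reads and to 239, 206 and 137 reads. Guides to Gtf2h4 (chromosome 17, 35667728 to 35673750) summed to 2695 and 1076 plasmid reads and to 574, 400 and 298 reads. The cell sums of all 4 genes were lower at each later day. Single guides went much further than the sums: Gtf2h3 guide 7 had 166 and 84 plasmid reads and then 14, 3 and 1, and Gtf2h1 guide 3 had 204 and 67 and then 11, 3 and 1. These left 2.09% and 1.93% of their plasmid abundance (95% counting intervals 0.053 to 11.8% and 0.049 to 10.8%). In Gtf2h4 the deep losses were 3 overlapping guides: guide 1, at least 6.13-fold lower with 0 reads at day 12, guide 5 at -4.01 and guide 6 at -2.99, while 4 of the other 6 lay above -1. With overlapping guides averaged Gtf2h4 was still called lower, but not among its 5 guides with at least 100 plasmid reads (-0.85).

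Gtf2i (chromosome 5, 134237832 to 134317678) encodes TFII-I, and its neighbour Gtf2ird1 (chromosome 5, 134357661 to 134456867) encodes a related protein; the human copies lie in the region deleted in Williams-Beuren syndrome. Guides to Gtf2i summed to 1835 and 670 plasmid reads and to 482, 481 and 369 reads at days 5, 8 and 12. Their median was -0.11, 0.085 and -0.11 (SD 0.84). All 8 kept guides were below 0 at day 12, but 5 of them lay between -0.14 and -0.016, and guides 2 (-2.28) and 10 (-1.42) made up the lower end. The slope was -0.028 per day (SE 0.0091; edgeR adjusted p = 0.0262), and leaving out either plasmid library or the day 12 library ended the call (adjusted p between 0.00057 and 0.138 over the same 11 alternatives).

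Guides to Gtf2ird1 summed to 2200 and 887 plasmid reads and to 610, 590 and 391 reads. The median stood at -0.099, -0.32 and -1.03 (SD 0.60 at day 12). Counted from the TMM zero, 9.57% of the final change was present at day 5. Non-targeting guides had a median of 0.41 at day 5, so the share depends on this reference. The slope was -0.043 per day (SE 0.0091, edgeR adjusted p = 0.00363). Of its 9 guides 5 lay in a narrow band from -1.35 to -1.03, and no guide was lower. The 2-fold call rests on a median just past the limit: it held in 6 of 14 alternatives, with the mean of the guides and with the GC correction (-0.94) among those that ended it, and leaving out the day 12 library ended the trend call, with a slope of -0.026. The 9 kept guides fall on 5 separate sites.

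Calls at the earlier days and between days were fewer. At day 5 guides to 7 of the 16 genes were called lower, where 6.3% of all genes were, and at day 8 guides to 9, where 12.1% were. The 7 were Gtf2f2, Gtf2b, Gtf2a2, Gtf2h1, Gtf2h2, Gtf2e2 and Gtf2h3. That count was 2 with the GC correction and 11 with scaling on non-targeting guides, where 223 of all genes were called in place of 106, so which genes were lower first depends on these settings. Between days 5 and 12, a comparison that does not use the plasmid libraries, 4 genes were called lower, where 7.02% of all genes were: Gtf2e2 (-1.66), Gtf2h1 (-1.30), Gtf2a1 (-1.11) and Gtf2f2 (-1.05). From day 5 to day 8 the 1 call was Gtf2a1 (-1.06), where 2.62% of all genes were called, and from day 8 to day 12 it was Gtf2e2 (-1.16), where 0.654% were. Either count became 0 with no guide filter, with a pseudocount of 5 or with summed reads, and the count from day 5 to day 8 became 3 with at least 100 plasmid reads or non-targeting scaling. Without plasmid libraries in the comparison none of the 16 was called higher either, where 0.832% of all genes were from day 5 to day 12 and 0.416% from day 8 to day 12. From day 8 to day 12 5 genes had medians above 0, the highest Gtf2b (0.43) and Tbp (0.28). Their raw reads were 113 and 160 at day 8 and 126 and 167 at day 12. On the CPM scale, which allows for the smaller effective size of the day 12 library, the sums went from 108 to 137 for Gtf2b. For Tbp they went from 153 to 182. The day comparisons share libraries with each other and with the plasmid comparisons.

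Guides to 1 gene often target nearly the same bases. Among the 135 kept guides 31 pairs within 13 of the genes shared 10 or more bases on the same or on opposite strands, so the guides stand for 106 separate sites. The median difference between the 2 guides of an overlapping pair was 0.98 log2 units at day 12, against 1.23 for the 476 pairs of 1 gene that do not share a site. In 15 of the 31 overlapping pairs the guides differed by 1 or more, as 58.0% of the other pairs did. Guides that overlap thus often differed widely, but they need not cut at the same place. With the cut placed 3 bases from the 3′ end of each guide, the cuts of a pair lay 3 to 23 bases apart. The differences in change were not tested.

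The following overlapping guides were chosen after their values were seen, because they show how far apart neighbours can end. Capitals mark the bases the guides of a gene share, which for opposite strands are reverse complements.
Gtf2f2 guide 4: gtaCTATAATCTCAaggact
Gtf2f2 guide 5: gcatcagtaCTATAATCTCA
Gtf2f2 guide 8: CTATAATCTCAaggacttgg
Gtf2f1 guide 5: caAGCGTCTTCGGATGGACA
Gtf2f1 guide 9: cgTGTCCATCCGAAGACGCT
Gtf2e1 guide 3: tgttggtccaCGCCTCTCGG
Gtf2e1 guide 7: gtgggcaccaCCGAGAGGCG
Gtf2a1l guide 4: TGTAATTGAAGATGTCAtcg
Gtf2a1l guide 8: TGACATCTTCAATTACAgac
Gtf2h4 guide 5: TCGATTCCCCAACATGGtgg
Gtf2h4 guide 1: ctaTCGATTCCCCAACATGG

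The 3 Gtf2f2 guides share 11 bases of 1 strand. Guide 8, which lies 3 bases from guide 4, went to 3, 3 and 0 reads at days 5, 8 and 12 after 97 and 43 plasmid reads, at least 9.20-fold lower at day 12. Guide 4 held at 7, 7 and 8 reads after 116 and 40, a change of -1.75, and guide 5 went to 10, 3 and 1 after 339 and 100, which left 1.19% (95% counting interval 0.030 to 6.68%). Guide 4 was thus the least lost of the 3. It still kept only 27.5% of its plasmid level at day 12, and its own trend fell (edgeR adjusted p = 0.00257). The contrast with its neighbours rests on few reads.

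The Gtf2f1 guides share 18 bases on opposite strands, with cuts placed 12 bases apart. Guide 5 ended at -1.71 and guide 9 at 0.98. Guide 9 had 106 and 51 plasmid reads and 35, 34 and 63 reads in the cells, so it was above its plasmid level in the day 12 library alone. The Gtf2e1 guides, with 10 shared bases and cuts placed 4 bases apart, ended at -2.44 for guide 3 and -0.12 for guide 7. Guides 4 and 8 of Gtf2a1l share 17 bases on opposite strands, with cuts placed 17 bases apart, and ended at 0.77 and -1.57. By contrast guides 5 and 1 of Gtf2h4, shifted by 3 bases, were both nearly gone, with 15, 2 and 2 reads after 177 and 66 for guide 5, and 3, 0 and 0 reads after 56 and 32 for guide 1.

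Base composition moved with the changes, and its part in them was not tested beyond the correction given here. Across the 135 guides the Pearson correlation of the number of G and C bases with the day 12 change was 0.35, and 0.26 after each gene's mean was taken off both; these guides share libraries and targets, so the values describe them only. The non-targeting guides, which have no target, showed a correlation of 0.32 over 893 guides and a slope of 0.125 log2 units per base. The slope over the 135 guides was steeper, at 0.251 per base and 0.172 within genes. A correction by the non-targeting line therefore removes only part of the relation in these guides. The 34 guides with 8 or fewer G and C bases had a median of -2.44, the 77 with 9 to 11 had -1.20 and the 24 with 12 or more had -0.90, against 0.066, 0.50 and 0.71 in the same classes of non-targeting guides. The kept guides to these genes had a median of 10 G and C bases, against 11 over all guides to genes. After subtraction of the line fitted to non-targeting guides, 9 of the 16 genes were called lower at day 12. These were Gtf2a1, Gtf2a2, Gtf2b, Gtf2e2, Gtf2f2 and the 4 TFIIH genes, and Gtf2e2 stood at -3.32. At day 5 the corrected values gave 2 genes called lower in place of 7.

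Other genes of the initiation pathway were read from lists put together with earlier results of these data known. Both helicase genes of TFIIH were called lower at day 12, with medians of -2.38 for Ercc3 (SD 1.37) and -2.28 for Ercc2 (SD 1.20), and both fell in the trend. They lie within the range of the 4 Gtf2h genes. Of 11 RNA polymerase II subunit genes 10 were called lower, with a list median of -2.47 and Polr2g (-4.33) lowest and Polr2k (-0.80) highest, and all 11 fell in the trend. Of 13 genes with TBP-associated factor names 10 were called lower, with a median of -1.48, Taf13 (-2.57) lowest and Taf4b (0.17) highest, and 10 fell. Taf4b is a relative of Taf4 (-1.46) known for its role in germ cells. Of the relatives with known germ cell roles, Taf4b and Gtf2a1l had medians above 0, while Tbpl1 was called lower (-1.24).

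Of 17 Mediator genes, whose complex links activators to the polymerase, 11 were called lower, with a median of -1.75, Med8 (-2.72) lowest and Med13 (0.35) highest, and 14 fell. All 6 genes of the polymerase III factors named Gtf3 were called lower, with a median of -1.84 and Gtf3c3 (-3.24) lowest and Gtf3c5 (-1.01) highest, and 5 fell. Among 7 partners and regulators of TBP 3 were called lower, with a median of -0.84, Taf1b (-2.28) lowest and Btaf1 (-0.48) highest, and 6 fell; Taf1b and Taf1c are also among the TBP-associated names. No gene of these lists was called higher or rose. The same limit was passed by 15.8% of all genes. Whether any list differs from the 16 genes described here was not tested.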

How the data were processed

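The authors deposited 1 table of unnormalized whole-number counts of reads for each library. Per the submitters' processing notes the software was cutadapt, Bowtie and featureCounts, with the build mm10; the reference for guide reads is not given in the sources used here. All 16 symbols matched a RefSeq gene table of that build, which gave the gene coordinates. Guides were not placed on exons, and only distances between overlapping guides are given. A search of 16 windows around gene starts, for 15 of the 16 genes, held none of the guides to these genes.

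Guides needed at least 30 reads in both plasmid libraries (15336 kept). Counts were scaled with TMM (edgeR 4.0.16, R 4.3.3), with a pseudocount of 1 CPM. Calls by size need a median of 2-fold and no test. Slopes over days (plasmid at day 0) were tested with edgeR's quasi-likelihood test, per gene on summed reads and per guide, with Benjamini-Hochberg adjustment over all genes or guides; the SE is the slope divided by the root of its F. DESeq2 1.42.0 was an alternative. The slope estimates of the trend test were checked on simulated counts with a fixed dispersion and straight-line slopes. That check cannot show that the p-values hold in these data. Guides with 0 reads were set against a floor of 3 reads, and guides with 1 to 3 reads have 95% exact binomial intervals. No adjustment was made for guide efficiency.

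All 16 genes are named. Printed guides are all those of the gene with the lowest median and of the gene with the widest SD (the same gene here), and the lowest and highest guide of the other genes at or below -1 and of the gene nearest 0. The genes and lists were chosen with earlier results of these data known.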

Additional observations from a re-analysis of the deposited data

How the results depend on the processing

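The count of 13 genes called lower at day 12 stayed within 1.5 times under all 14 alternatives to the fold change (9 to 14 genes), although which genes were called differed, and so did the 15 falling trends under 11. The number called at day 5 was 7, against 11 with scaling on non-targeting guides, 11 after subtraction of the non-targeting median, 11 at a limit of 1.5-fold and 2 with the GC correction. Over all genes the first 3 of these settings gave 223, 221 and 221 genes lower at day 5 in place of 106, 373, 364 and 322 at day 8 in place of 204, and 493 and 450 at day 12 in place of 265 (the 1.5-fold limit within 1.5 times there). For day 8 against day 5 the 1 call became 0 with no guide filter, with a pseudocount of 5 or with summed reads, 2 with overlapping guides averaged, 3 with at least 100 plasmid reads, with scaling on or subtraction of non-targeting guides, and 8 at 1.5-fold. For day 12 against day 8 the 1 call became 0 with no filter, at least 100 reads, a pseudocount of 5, the mean or summed reads, and 2 at 1.5-fold. For day 12 against day 5 the 4 calls became 2 with a pseudocount of 5, 7 with either non-targeting setting and 9 at 1.5-fold. Averaging overlapping guides and subtracting the non-targeting median were chosen after seeing the data.

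In the gene trend, scaling on non-targeting guides gave 1215 genes lower and 18 higher in place of 424 and 584, and at least 100 reads gave 376 higher. The rise of Gtf2a1l reversed to a slope of -0.02952 with non-targeting scaling, and the count of 1 riser was 0 there, with at least 100 reads, without plasmid replicate 2 and without the day 12 library. In the guide trend the 98 falling guides became 32 with at least 100 reads, where fewer guides are tested and Gtf2h2 has none. The 5 rising guides became 1 with at least 100 reads or non-targeting scaling and 3 with the DESeq2 Wald test or without the day 12 library. Over all guides, 3506 lower and 2730 higher became 1139 and 982 with at least 100 reads and 7192 and 438 with non-targeting scaling. Leaving out plasmid replicates 1 and 2 in turn gave 2211 to 2441 guides lower, 1393 to 1557 higher, and 3 rising guides of these genes each time. It gave 5 to 8 genes lower at day 5, 9 to 10 at day 8 and 13 at day 12, and 14 falling trends. No paired analysis was possible because only the plasmid pool has replicate numbers. Depth limits single guides: at day 12 a library of 1008492 reads gives the median guide of these genes 17 reads. The day 12 median of Gtf2e2 was -3.95 with a pseudocount of 0.5 and -2.68 with one of 5, and -5.20 over its 2 guides with at least 100 plasmid reads.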

Other observations

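The 25 guides to these genes that were left out for low plasmid reads had 29 to 113 reads in plasmid library 1 and 7 to 29 in plasmid library 2, and are given as raw reads. At day 12 they had 0 to 36 reads, and 6 of them had 0. Among them was Gtf2e2 guide 7, with 29 and 10 plasmid reads and then 3, 0 and 0 reads at days 5, 8 and 12. Gtf2e2 guide 10 had 64 and 24 plasmid reads and then 8, 11 and 19. Gtf2b guide 5 had 38 and 10 plasmid reads and then 0, 1 and 2. Tbp guide 2 had 61 and 25 plasmid reads and then 3, 0 and 0, and Tbp guide 4 had 111 and 29 and then 9, 8 and 1. With all guides that had at least 1 plasmid read, the day 12 median was -1.68 for Tbp, -2.04 for Gtf2b and -3.35 for Gtf2e2.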
